A study of Homo sapiens with 4 samples.

Results

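Sialyltransferases are Golgi enzymes that transfer sialic acid from CMP-sialic acid to the ends of the sugar chains of glycoproteins and glycolipids. This account concerns ST8SIA6 and 9 more sialyltransferase genes, 10 of the 18417 genes measured, in leukaemia cells made resistant to a kinase inhibitor and in the line they came from. The members were ST8SIA6, ST8SIA1, ST8SIA4, ST3GAL1, ST3GAL2, ST3GAL4, ST3GAL5, ST3GAL6, ST6GAL1 and ST6GALNAC4, and each was represented by the probe set with its gene symbol that was brightest over the 4 arrays. ST8SIA6 was chosen by its difference between the lines on these same 4 arrays, one of the largest falls, so that difference is described here without a test. The other members were named with results of these data known, and a count over them is a description.

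The lines were MV4-11R, which is drug-resistant, on 2 arrays, and its drug-sensitive parent MV4-11, also on 2 arrays. MV4-11 comes from a human acute myeloid leukaemia and has a rearranged MLL gene and a FLT3 receptor kinase made constantly active by an internal tandem duplication. MV4-11R was raised from it by 3 months of growth in rising amounts of PKC412 (midostaurin), which inhibits FLT3 and other kinases, and the series asks about loss of the histone methyltransferase EZH2 and multidrug resistance. The labels describe 1 resistant line, do not say whether it is a clone or whether drug was present when the cells were harvested, and leave unsaid whether the replicates were separate cultures. The p-values therefore reflect array-to-array spread only, and that spread may be technical. In RNA from whole cultures, fewer cells expressing a gene and less RNA per cell cannot be told apart.

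The family is named for the bond it makes. ST3GAL enzymes add sialic acid in α2,3 linkage to galactose, ST6GAL enzymes in α2,6 linkage to galactose, ST6GALNAC enzymes in α2,6 linkage to N-acetylgalactosamine, and ST8SIA enzymes in α2,8 linkage to a sialic acid that is already there. On blood cells the products cap N-glycans and mucin-type O-glycans, form gangliosides, complete selectin ligands and are read by siglecs, a family of inhibitory and activating receptors.

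Values are log2 RMA signals, and a difference is MV4-11R minus MV4-11 in log2 units. A gene rose or fell where limma's test, adjusted by Benjamini-Hochberg over all genes, gave p under 0.05. Of all genes 2772 passed (15.1%), with 7.92% rising and 7.13% falling, and the median difference was 0.0073. On 55.6% of genes the arrays of the lines did not overlap, so non-overlap alone is common here. The 95th percentile of 341 olfactory receptor genes, 6.26, serves as a guide to background. Array medians were 6.75 to 6.78. EZH2, which the labels give as low in MV4-11R, read 9.90 and 9.29 in MV4-11R, against 9.75 and 9.74 in MV4-11 (difference -0.14, SE 0.20, adjusted p = 0.734). These are RNA signals, and EZH2 protein was not measured on these arrays. Leaving out an array leaves 1 array in its line, and the fit then takes that line to vary like the other one, so such p-values rest on the spread of the other line.

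The marker lists of cell types were read first, beside 7.92% of all genes rising and 7.13% falling. Of the 9 myeloid markers with a probe set 1 rose, AZU1 (0.73, adjusted p = 0.0137), and 4 fell. The falls were CSF1R (-1.73, adjusted p = 0.00939), ANPEP (-1.18, 0.0110), FLT3 (-0.93, 0.00526) and LYZ (-0.69, 0.0192), and SPI1, CEBPA, MPO and KIT did not pass. KIT was under the background guide in both lines and ANPEP in MV4-11R (mean 6.197), and the other 7 were above it in both. The summed linear signal of the 9 was 12860 to 13190 in MV4-11R and 15820 to 17790 in MV4-11. Of 4 measured B cell markers PAX5 rose (0.80), CD79B fell (-1.09), CD79A did not pass and MS4A1 was under the guide, with sums of 531.5 to 565.7 in MV4-11R and 560.6 to 623.7 in MV4-11. Of 6 T and NK cell markers NKG7 rose (0.94) and CD3D, CD3E, CD3G and CD2 were under the guide. NCR1 (-0.06) did not pass, and the sums were 2743 to 2872 in MV4-11R and 1531 to 1620 in MV4-11. Of 4 measured erythroid and megakaryocyte markers ITGA2B fell (-0.67) and PF4 was under the guide. EPOR (0.20) and KLF1 (0.38) were above the guide and higher in MV4-11R but did not pass. The sums were 697.4 to 761.1 in MV4-11R and 691.8 to 715.6 in MV4-11. Of 7 epithelial and fibroblast markers 0 passed limma's adjusted threshold and 1, KRT8, had an unadjusted p under 0.05. EPCAM, CDH1 and DCN were under the guide and KRT8, KRT19, COL1A1 and COL3A1 above it on every array, with sums of 693.9 to 748.2 in MV4-11R and 741.8 to 784.8 in MV4-11. The part of these shifts in the results that follow was not tested.

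Of the 9 members tested 2 fell, ST6GAL1 and ST3GAL6, and their promoter windows and that of ST8SIA4, which did not pass, are shown so that the promoters of genes that fell can be read beside one whose arrays overlapped. The sequences are RefSeq windows of build GRCh38.p14, 250 bases before to 50 after a start, and windows of 7 of the 10 members were examined, without ST8SIA6, ST3GAL1 and ST3GAL2. CG dinucleotides are in capitals. The promoter table lists 1 start for ST6GAL1, 1 for ST8SIA4 and several for ST3GAL6, of which the 2 farthest upstream are shown.
ST6GAL1 (chr3:186930276-186930575, plus strand): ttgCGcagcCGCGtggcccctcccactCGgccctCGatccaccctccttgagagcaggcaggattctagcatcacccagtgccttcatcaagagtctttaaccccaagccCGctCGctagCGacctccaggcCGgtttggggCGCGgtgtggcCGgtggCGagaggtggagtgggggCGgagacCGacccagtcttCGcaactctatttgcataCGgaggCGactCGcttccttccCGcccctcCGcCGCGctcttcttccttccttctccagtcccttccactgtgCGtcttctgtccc
ST3GAL6 (chr3:98732012-98732311, plus strand): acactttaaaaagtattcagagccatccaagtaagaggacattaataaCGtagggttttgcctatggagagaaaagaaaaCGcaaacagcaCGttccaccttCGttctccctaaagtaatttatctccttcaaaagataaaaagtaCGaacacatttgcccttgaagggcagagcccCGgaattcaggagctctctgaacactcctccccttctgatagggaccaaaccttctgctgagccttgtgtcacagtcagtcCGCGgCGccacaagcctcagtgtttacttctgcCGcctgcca
ST3GAL6 (chr3:98732451-98732750, plus strand): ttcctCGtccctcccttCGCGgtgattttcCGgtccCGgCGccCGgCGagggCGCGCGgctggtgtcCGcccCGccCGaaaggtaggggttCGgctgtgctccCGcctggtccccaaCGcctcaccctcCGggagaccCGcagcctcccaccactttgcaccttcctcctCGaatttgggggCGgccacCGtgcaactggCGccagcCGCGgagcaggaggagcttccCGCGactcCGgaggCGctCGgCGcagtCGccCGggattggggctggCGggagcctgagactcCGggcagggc
ST8SIA4 (chr5:100903233-100903532, minus strand): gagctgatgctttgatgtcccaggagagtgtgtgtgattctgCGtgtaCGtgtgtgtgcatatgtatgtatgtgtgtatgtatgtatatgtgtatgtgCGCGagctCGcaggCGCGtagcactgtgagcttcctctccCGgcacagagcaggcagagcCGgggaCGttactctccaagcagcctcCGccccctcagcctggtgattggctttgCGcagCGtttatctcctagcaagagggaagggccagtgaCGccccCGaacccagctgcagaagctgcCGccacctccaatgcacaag
The ST6GAL1 window held 24 CG dinucleotides, the outermost ST3GAL6 window 10, the next ST3GAL6 window 35 and the ST8SIA4 window 16, against a median of 21 over 22199 windows of protein-coding genes. The ST3GAL6 windows that are not shown held 25 and 1. Windows of the other members examined, which did not pass, held 39 (ST6GALNAC4), 35 (ST8SIA1), 8 to 46 (ST3GAL4) and 3 to 48 (ST3GAL5). The letters GGGCGG, searched on both strands, were found 2 times in ST6GAL1, 0 times in the outermost ST3GAL6 window, 3 times in the next and 1 time in ST8SIA4, and 56.3% of all windows held them. A GGGCGG match contains 1 of the CG dinucleotides. The letters CCAAT were found 0 times in ST6GAL1, 0 and 1 times in the ST3GAL6 windows and 2 times in ST8SIA4 (34.7% of all windows held them), and TATAAA was found in none of the 4 windows (9.47% of all windows held it). The letters GAGGAA were found 0 times in ST6GAL1, 0 and 2 times in the ST3GAL6 windows and 1 time in ST8SIA4 (27.9% of all windows held them). These are matches of letters in short windows, and the arrays do not say which start was used.

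Among the α2,8 enzymes, ST8SIA6 (Entrez gene 338596, chromosome 10) adds a second sialic acid to sialylated glycans, with a preference for O-glycans, and makes ligands of siglecs. ST8SIA6 read 4.80 and 5.49 in MV4-11R, against 8.36 and 9.09 in MV4-11. Both MV4-11R arrays lay below the background guide and both MV4-11 arrays well above it, with no overlap. Mean signal was 5.15 ± 0.49 in MV4-11R and 8.73 ± 0.51 in MV4-11 (SD, n = 2 each), a difference of -3.58 or 11.9-fold. Because the MV4-11R signal was at background level, the fold is not exact. The difference was -3.94 to -3.22 with 1 array left out.

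ST8SIA4 makes polysialic acid, the long sialic acid chain best known on the adhesion molecule NCAM1. ST8SIA4 read 8.76 and 9.06 in MV4-11R, against 8.40 and 8.94 in MV4-11. The ranges overlapped, and the difference of 0.24 (SE 0.21, 95% interval -0.27 to 0.75, adjusted p = 0.541) did not pass. Without MV4-11 replicate 1 its sign turned (-0.033). ST8SIA1, the GD3 synthase that starts the b series of gangliosides, read 5.73 and 5.48 in MV4-11R, against 5.88 and 5.87 in MV4-11. All 4 values were under the background guide, and the difference of -0.27 (SE 0.12, 95% interval -0.57 to 0.04, adjusted p = 0.229) did not pass.

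**Figure D1:**
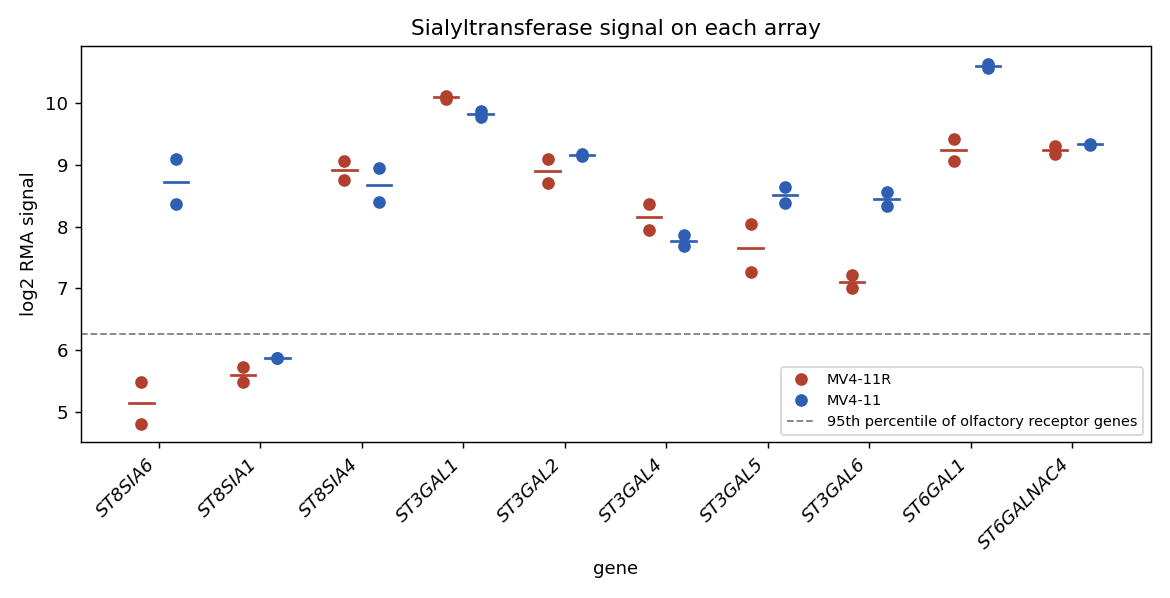
Log2 RMA signal (vertical axis) of the 10 sialyltransferase genes (horizontal axis) on each array. Points are arrays, short bars are the mean of each line (n = 2), MV4-11R is in red and MV4-11 in blue, and the dashed line is the background guide of 6.26. ST8SIA6 reads 4.80 and 5.49 in MV4-11R and 8.36 and 9.09 in MV4-11, and ST8SIA1 lies under the guide in both lines.

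Of the α2,6 enzymes, ST6GAL1 caps the galactose of N-glycans and makes the ligand of the B cell receptor partner CD22. ST6GAL1 (Entrez gene 6480, chromosome 3) read 9.06 and 9.42 in MV4-11R, against 10.63 and 10.57 in MV4-11. The MV4-11R arrays were both lower, and all 4 values were far above the background guide. ST6GAL1 fell 2.55-fold (difference -1.35, SE 0.15, adjusted p = 0.00427), the 229th largest fall, and with 1 array left out its difference was -1.53 to -1.17 (adjusted p at most 0.0123). ST6GALNAC4 adds the second sialic acid to sialylated core 1 O-glycans. It read 9.17 and 9.30 in MV4-11R, against 9.34 and 9.32 in MV4-11, and the difference of -0.10 (SE 0.11, 95% interval -0.37 to 0.18, adjusted p = 0.673) did not pass. Its 2 dimmer probe sets gave -0.08 and -0.03.

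Of the 5 α2,3 enzymes 1 fell and 4 did not pass. ST3GAL6 acts on lactosamine ends of glycoproteins and glycolipids and takes part in making selectin ligands. ST3GAL6 (Entrez gene 10402, chromosome 3) read 7.22 and 6.998 in MV4-11R, against 8.33 and 8.56 in MV4-11. Both MV4-11R arrays lay under both MV4-11 arrays and above the background guide. ST3GAL6 fell 2.52-fold (difference -1.33, SE 0.14, adjusted p = 0.00396), the 243rd largest fall, and with 1 array left out its difference was -1.45 to -1.22 (adjusted p at most 0.0111).

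ST3GAL5 is the GM3 synthase, which makes the ganglioside from which the more complex ones are built. ST3GAL5 read 7.27 and 8.05 in MV4-11R, against 8.39 and 8.64 in MV4-11. The lines did not overlap, but the MV4-11R arrays were far apart (SD 0.55, n = 2), and the difference of -0.85 (SE 0.26, 95% interval -1.48 to -0.22, adjusted p = 0.0805) did not pass. The value turned on 1 array: it was -1.24 (adjusted p = 0.00903) without MV4-11R replicate 2 and -0.46 (adjusted p = 0.160) without MV4-11R replicate 1, both with the residual spread of the MV4-11 arrays alone.

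ST3GAL4, which also serves selectin ligand synthesis, read 8.37 and 7.94 in MV4-11R, against 7.85 and 7.68 in MV4-11. Both MV4-11R values were the higher, but the difference of 0.38 (SE 0.17, 95% interval -0.03 to 0.80, adjusted p = 0.205) did not pass. ST3GAL1, which caps core 1 O-glycans, read 10.07 and 10.11 in MV4-11R, against 9.86 and 9.78 in MV4-11. Its difference of 0.27 (SE 0.11, 95% interval 0.0088 to 0.53, adjusted p = 0.162) did not pass, and its chromosome 8 neighbours had a median difference of 0.26. ST3GAL2, which acts on core 1 O-glycans and on gangliosides, read 8.71 and 9.09 in MV4-11R, against 9.18 and 9.15 in MV4-11. Its difference of -0.27 (SE 0.15, 95% interval -0.64 to 0.10, adjusted p = 0.327) did not pass.

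Leaving ST8SIA6 aside, 2 of the 9 members fell, 0 rose and 7 did not pass, beside 15.1% of all genes passing and 7.13% falling. The median difference of the 10 was -0.27, against 0.0073 over all genes, and the arrays of the lines did not overlap for 9 of 10, beside 55.6% of all genes. MV4-11R was lower in 7 of these (26.0% of all genes) and higher in 2 (29.6% of all genes). Because the members were named with these results known, nothing is read from these counts.

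The other 10 human sialyltransferase genes were all measured, with a median difference of -0.04. Of these 0 rose, 1 fell and 9 did not pass, beside 15.1% of all genes passing. ST6GALNAC6, which sialylates gangliosides and type 1 chains, read 8.997 and 9.27 in MV4-11R, against 9.72 and 9.90 in MV4-11. It fell 1.60-fold (difference -0.68, SE 0.14, adjusted p = 0.0272), and a second probe set gave -0.65. The call was lost without MV4-11R replicate 1 (-0.54, adjusted p = 0.0907), MV4-11 replicate 1 (-0.76, adjusted p = 0.0522) or MV4-11 replicate 2 (-0.59, adjusted p = 0.103). ST6GALNAC4, a member, is on chromosome 9 as well and had a difference of -0.10.

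Among the remaining 9, ST3GAL3, a second enzyme of lactosamine ends, had -0.32 (SE 0.12, adjusted p = 0.142) and ST6GALNAC2, an O-glycan enzyme, -0.40 (SE 0.15, adjusted p = 0.153). ST6GALNAC1, the sialyl-Tn synthase, had 0.15, ST6GAL2 0.17 and ST6GALNAC3 0.26 (adjusted p = 0.447, 0.447 and 0.255). ST8SIA2, the polysialic acid enzyme of the developing brain, had -0.05, ST8SIA3 -0.14, ST8SIA5 0.02 and ST6GALNAC5 -0.04. ST6GALNAC3, ST6GALNAC5, ST8SIA2 and ST8SIA3 read under the background guide in both lines. ST8SIA3 and ST8SIA5 lie on chromosome 18 among neighbours that were higher in MV4-11R, by a median of 0.59 for ST8SIA3 and 0.75 for ST8SIA5.

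**Figure D2:**
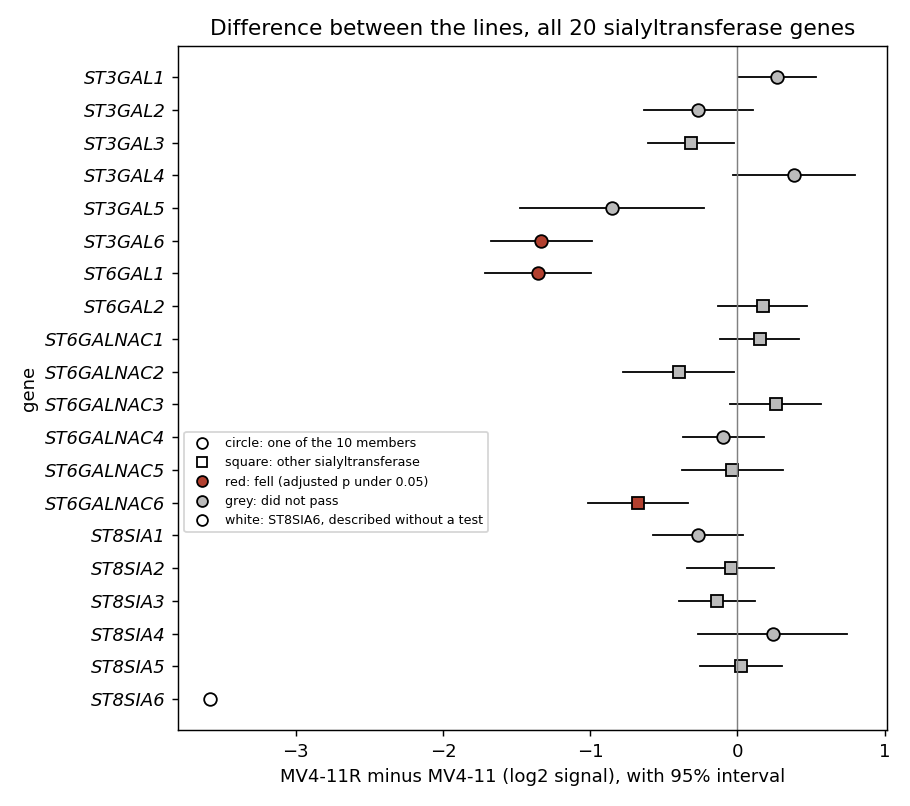
Difference in log2 signal, MV4-11R minus MV4-11 (horizontal axis), for all 20 sialyltransferase genes (vertical axis), with limma's 95% interval as a line except for ST8SIA6. ST3GAL6 (-1.33), ST6GAL1 (-1.35) and ST6GALNAC6 (-0.68) are in red as falls, ST8SIA6 stands at -3.58, and the other 16 did not pass.

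The genes next to a sialyltransferase were compared as well, taking for each the 15 genes on either side on its chromosome that were above the median level. The median difference of these neighbours was -0.23 for ST8SIA6, -0.23 for ST3GAL6 and -0.28 for ST6GAL1, and it lay between -0.04 and 0.26 for the other 7 members. With the neighbours' median taken off, ST8SIA6 stood at -3.35, ST3GAL6 at -1.10 (adjusted p = 0.00743) and ST6GAL1 at -1.07 (adjusted p = 0.00911). ST3GAL6 and ST6GAL1 were still past the threshold. Here and below that median was subtracted as a fixed value, so the adjusted p-values take in none of its uncertainty.

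**Figure D3:**
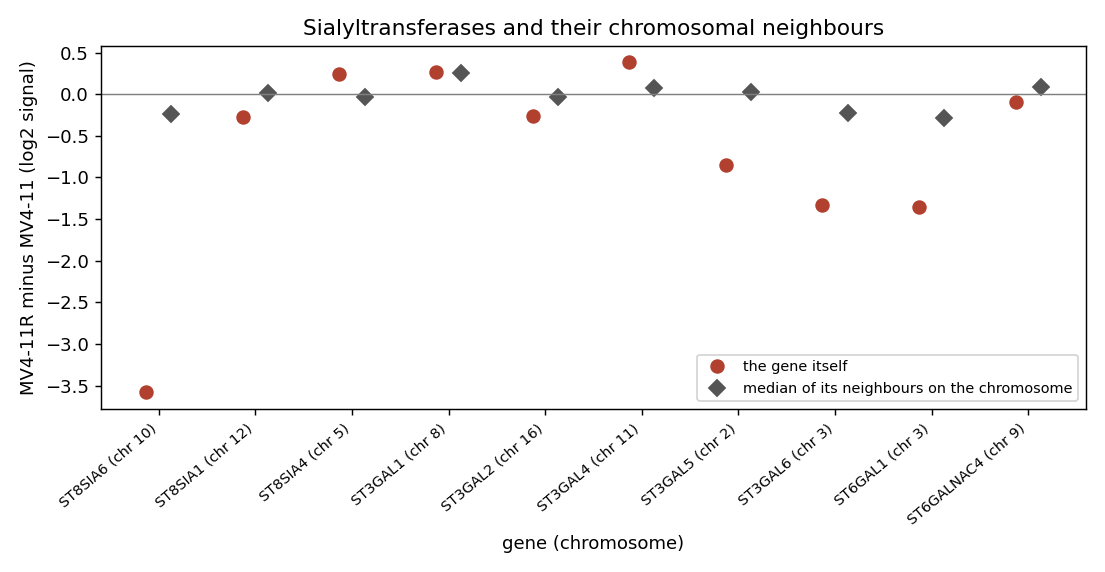
Difference in log2 signal, MV4-11R minus MV4-11 (vertical axis), of each member (red circles) and the median over its neighbours on the same chromosome (grey diamonds, up to 15 genes on either side). The neighbours lie between -0.28 and 0.26, whereas ST8SIA6, ST3GAL6 and ST6GAL1 lie at -3.58, -1.33 and -1.35.

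The 5 genes whose values over the 4 arrays were nearest to those of ST8SIA6, after each gene's mean was taken off, were SLAIN1 (root mean square distance 0.13 log2 units), UTY (0.26), DDX3Y (0.28), FRY (0.29) and EPB41L2 (0.30). Each had a difference between -3.43 (FRY) and -3.98 (EPB41L2), and SLAIN1, the nearest, read 5.13 and 5.84 in MV4-11R, against 8.996 and 9.43 in MV4-11. They lie on chromosomes 13, Y, Y, 13 and 6, and ST8SIA6 on 10. With the neighbours' median taken off, SLAIN1 stood at -2.66, FRY at -3.45 and EPB41L2 at -3.99, beside -3.35 for ST8SIA6. UTY and DDX3Y on chromosome Y had no neighbours' median to take off and stayed at -3.65 and -3.94. In MV4-11R 4 of the 5 were under the background guide, with FRY the exception. The points share the same 4 arrays, so likeness here is a description of these arrays.

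Of 8 genes of sialic acid metabolism and transport 2 rose, 1 fell and 5 did not pass, beside 15.1% of all genes passing. NANP, which removes the phosphate in the last step to free sialic acid, read 7.49 and 7.54 in MV4-11R, against 6.91 and 6.84 in MV4-11, and rose 1.56-fold (0.64, SE 0.11, adjusted p = 0.0145). NANS, the sialic acid 9-phosphate synthase, read 9.42 and 9.54 in MV4-11R, against 8.84 and 8.90 in MV4-11, and rose 1.53-fold (0.61, SE 0.11, adjusted p = 0.0185). RENBP, an epimerase of N-acetylglucosamine, fell 1.49-fold (-0.57, adjusted p = 0.0220). The entry enzyme GNE was at -0.46 (adjusted p = 0.171), CMAS, which activates sialic acid to the CMP form, at -0.10 (0.726), and the Golgi transporter SLC35A1 at 0.48 (0.262). With 1 array left out RENBP kept a difference of -0.63 to -0.51 but did not pass in any of the 4 fits (adjusted p 0.0584 to 0.102). NANS (0.55 to 0.67) did not pass without MV4-11R replicate 2, MV4-11 replicate 1 or MV4-11 replicate 2 (0.0570 to 0.0816), and NANP (0.61 to 0.67) without MV4-11 replicate 2 (0.0646) or with the neighbours' median of 0.28 taken off (0.36, adjusted p = 0.0736).

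Of 7 genes that remove or modify sialic acid 1 rose, 1 fell and 5 did not pass, beside 15.1% of all genes passing. NEU1, the lysosomal sialidase, read 9.12 and 9.27 in MV4-11R, against 10.14 and 10.26 in MV4-11, and fell 2.01-fold (-1.01, SE 0.12, adjusted p = 0.00503). CTSA, the protective protein that binds NEU1 in the lysosome, read 12.19 and 12.18 in MV4-11R, against 11.61 and 11.73 in MV4-11, and rose 1.43-fold (0.52, SE 0.11, adjusted p = 0.0295). NEU1 lies on chromosome 6, where its neighbours had a median of -0.39, and with that taken off it stood at -0.62 (adjusted p = 0.0220). CTSA had a difference of 0.46 to 0.58 with 1 array left out but did not pass in any of the 4 fits (adjusted p 0.0717 to 0.140), nor with its neighbours' median of 0.14 taken off (0.38, adjusted p = 0.0703).

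Of 8 measured ganglioside genes 2 rose, 0 fell and 6 did not pass, beside 15.1% of all genes passing. The 2 that rose were lactosylceramide synthases, which make the acceptor of ST3GAL5. B4GALT6 read 8.003 and 7.78 in MV4-11R, against 6.34 and 5.85 in MV4-11, and rose 3.47-fold (1.79, SE 0.19, adjusted p = 0.00386). The MV4-11 mean of 6.10 was under the background guide, so the fold is not exact. B4GALT5 read 12.05 and 12.34 in MV4-11R, against 11.13 and 11.31 in MV4-11, and rose 1.97-fold (0.97, SE 0.14, adjusted p = 0.0100). Neighbours of B4GALT6 on chromosome 18 had a median of 0.69 and those of B4GALT5 on chromosome 20 one of 0.32. With these taken off, B4GALT6 stood at 1.10 (adjusted p = 0.0163) and B4GALT5 at 0.66 (0.0318). UGCG, the glucosylceramide synthase one step earlier, was at -0.34 (adjusted p = 0.142), and B4GALNT1, which extends GM3 and GD3, at 0.07 with both lines under the guide.

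Next come genes of the glycans that carry sialic acid, again beside 15.1% of all genes passing. Of 15 measured O-glycan genes 1 rose (GALNT7, 0.49, adjusted p = 0.0401), 1 fell (GALNT2, -0.52, adjusted p = 0.0374) and 13 did not pass. Both start mucin-type chains. Of 14 N-glycan genes 2 rose, 2 fell and 10 did not pass. The galactosyltransferase B4GALT2 read 9.89 and 9.83 in MV4-11R, against 8.92 and 8.96 in MV4-11, and rose 1.90-fold (0.92, SE 0.11, adjusted p = 0.00493). The mannosidase MAN2A1 rose 1.58-fold (0.66, adjusted p = 0.0130), and the galactosyltransferases B4GALT1 (-0.57, adjusted p = 0.0475) and B4GALT4 (-0.51, adjusted p = 0.0486) fell. B4GALT1 provides galactose for ST6GAL1 to act on. With 1 array left out GALNT7 had a difference of 0.40 to 0.58 (adjusted p 0.0730 to 0.188) and B4GALT4 one of -0.64 to -0.38 (0.0553 to 0.202), and neither passed in any of the 4 fits. GALNT2 (-0.63 to -0.42) and B4GALT1 (-0.74 to -0.40) did not pass without MV4-11R replicate 1, MV4-11 replicate 1 or MV4-11 replicate 2 (0.118 to 0.137 for GALNT2 and 0.129 to 0.150 for B4GALT1), nor did MAN2A1 (0.63 to 0.70) without MV4-11 replicate 1 (0.0604). B4GALT1 also missed the threshold after median centring (0.0510) and B4GALT4 with an intensity trend in the variance (0.0507). With the neighbours' medians taken off, B4GALT4 stood at -0.04 (adjusted p = 0.858) and GALNT7 at 0.22 (0.263).

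Of 12 selectin ligand genes 1 rose, 2 fell and 9 did not pass, beside 15.1% of all genes passing. The adhesion receptor CD44 read 11.30 and 11.56 in MV4-11R, against 12.30 and 12.13 in MV4-11, and fell 1.72-fold (-0.78, SE 0.14, adjusted p = 0.0164). The sialomucin SPN (CD43) rose (0.58, adjusted p = 0.0223), and the sulfotransferase CHST2 fell 1.38-fold (-0.46, adjusted p = 0.0483). The fucosyltransferases that finish sialyl Lewis x, FUT4 (0.34, adjusted p = 0.229) and FUT7 (0.22, adjusted p = 0.290), and the carrier SELPLG (-0.21, adjusted p = 0.483) did not pass. CHST2 (-0.55 to -0.38 with 1 array left out) did not pass without any 1 array (adjusted p 0.0865 to 0.209), with an intensity trend in the variance (0.0561) or with the neighbours' median taken off (0.122). SPN (0.52 to 0.64) did not pass without MV4-11R replicate 1, MV4-11 replicate 1 or MV4-11 replicate 2 (0.0650 to 0.0959), nor did CD44 (-0.91 to -0.66) without MV4-11R replicate 1 (0.0537) or MV4-11 replicate 1 (0.0636).

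Of 14 measured siglec genes 1 rose, 1 fell and 12 did not pass, beside 15.1% of all genes passing. SIGLEC12 read 9.504 and 9.72 in MV4-11R, against 8.62 and 8.84 in MV4-11, and rose 1.84-fold (0.88, SE 0.14, adjusted p = 0.0119). SIGLEC10, an inhibitory siglec, read 8.13 and 8.12 in MV4-11R, against 8.71 and 8.66 in MV4-11, and fell 1.48-fold (-0.56, SE 0.11, adjusted p = 0.0204), but with 1 array left out it had -0.58 to -0.54 and did not pass in any of the 4 fits (0.0548 to 0.0929). SIGLEC7 and SIGLEC9, inhibitory siglecs of myeloid and NK cells, had differences of 0.05 (95% interval -0.26 to 0.36) and -0.19 (-0.47 to 0.08) and did not pass. Siglec genes resemble each other in sequence, and cross-hybridisation, which was not tested, could make the size for any single one uncertain.

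Of 5 measured genes for proteins known to carry polysialic acid 0 rose, 3 fell and 2 did not pass. Beside this, 15.1% of all genes passed and 7.13% fell. The median difference of the 5 was -0.78, against 0.0073 over all genes. The list was chosen with earlier results of these data known, so nothing is read from its count or median. CD36, a scavenger receptor of monocytes, read 5.27 and 5.69 in MV4-11R, against 7.89 and 8.48 in MV4-11, and fell 6.53-fold (-2.71, SE 0.23, adjusted p = 0.00217). NCAM1, the main carrier, read 5.94 and 5.61 in MV4-11R, against 8.15 and 7.51 in MV4-11, and fell 4.17-fold (-2.06, SE 0.23, adjusted p = 0.00458). The MV4-11R values of both genes were under the background guide, so neither fold is exact. The chemokine receptor CCR7 fell 1.71-fold (-0.78, adjusted p = 0.0128), but did not pass without MV4-11 replicate 2 (0.0524), with differences of -0.88 to -0.68 over the 4 fits. The MV4-11R mean of CCR7, 6.209, was under the guide, so the CCR7 fold is not exact either. CCR7 is better known for its role in lymph node homing, and ST8SIA4, the enzyme that builds polysialic acid chains, did not pass. CADM1 (0.0057) and NRP2 (-0.21, with both lines under the guide) did not pass either.

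**Figure D4:**
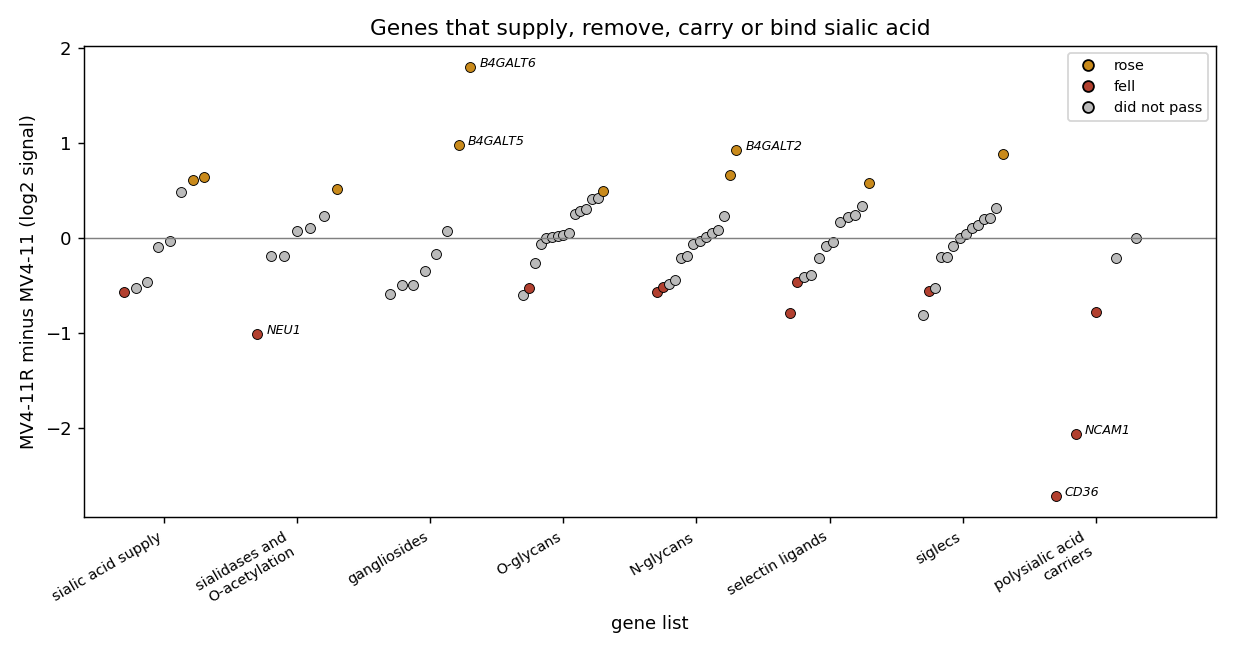
Difference in log2 signal, MV4-11R minus MV4-11 (vertical axis), for the measured genes of 8 lists related to sialic acid (horizontal axis). Each point is a gene, in orange where it rose, red where it fell and grey where it did not pass. CD36 (-2.71), NCAM1 (-2.06) and NEU1 (-1.01) are the lowest and B4GALT6 (1.79) and B4GALT5 (0.97) the highest.

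Across the 8 lists, which hold 83 genes with a value, 10 rose, 11 fell and 62 did not pass, beside 15.1% of all genes passing. The count of 21 was lower with any 1 array left out, and so was the count over all genes.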

How the data were processed

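RNA was measured on 4 arrays, 2 of MV4-11R and 2 of MV4-11. Values were deposited by the authors as log2 signals of probe sets. The submitters' processing notes name RMA and Affymetrix Expression Console, without versions. The log2 scale was read from the values. RMA compresses differences of dim genes, and the number of arrays limits the precision. Of 33297 probe sets, 19460 had 1 gene symbol in the platform annotation, 1754 had several and 12083 were not listed or had no symbol. Symbols were updated by Entrez ID (31 without a match), and the brightest probe set per gene left 18417 genes, with no filter on level. Chromosomes and gene order came from the RefSeq table of GRCh38.p14. The files name no build, so the only coordinates given are those of the promoter windows, which are on GRCh38.p14.

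Genes were tested with limma 3.58.1 (lmFit and eBayes, R 4.3.3), 2-sided, 2 residual degrees of freedom (6.06 after moderation), with Benjamini-Hochberg adjustment over all genes, and without a block. The test was also run on simulated data with independent noise of the size seen between arrays of a line. Such data cannot show whether that spread is technical, and no outcome is given here. Named genes were all sialyltransferases, the largest passing changes of each pathway list (at most 3 each way), EZH2 and the 5 genes most like ST8SIA6. Other genes named in the text (markers, and pathway genes that did not pass) were chosen after their values were seen. The members and lists were chosen with earlier results of these data known. Alternatives were other scalings, a filter on level, other uses of probe sets, another variance model, a replicate block, leaving out each array and taking off the neighbours' median. Some genes of the pathway lists were not analysed here.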

Additional observations from a re-analysis of the deposited data

How the results depend on the processing

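The ST8SIA6 difference, a description, was -3.94 to -3.22 with an array left out and -3.35 with the neighbours' median taken off, and 5 of the 12 alternatives could not change it. Of the 9 other members 2 or 3 passed under each alternative. The count of all genes passing was 1588 to 2479 with an array left out. When every probe set was tested on its own, 1505 of 33297 probe sets passed, 1164 of them among those that stand for the 18417 genes. The count of other sialyltransferases was 0 to 1 with an array left out, 0 with every probe set on its own, and 4 with the neighbours' median taken off, when ST3GAL3 (-0.58, adjusted p = 0.0278), ST8SIA3 (-0.72, 0.0108) and ST8SIA5 (-0.73, 0.0132, its sign turned) also passed. That median comes from brighter genes and is subtracted whole, also from ST8SIA3, which is near background. The count of pathway genes was 9 to 20 with an array left out and 10 with every probe set on its own. Replicate numbers are shared by the lines but not described as pairs. Same-numbered arrays deviated together (r = 0.26 across genes, which are not independent replicates). With the replicate block 3642 genes, 3 of the 9 other members, 1 other sialyltransferase and 31 pathway genes passed, and ST3GAL5 was the added member (adjusted p = 0.0188). With an array left out the sign turned for 5 genes, none of which passed when it did: ST8SIA4 (-0.033 to 0.51), ST6GALNAC5 (-0.20 to 0.13), ST8SIA2 (-0.13 to 0.040), ST8SIA5 (-0.049 to 0.094) and EZH2 (-0.45 to 0.16). The causes of these changes were not tested. Genes near background in a line, ST8SIA6 among them, have no exact fold.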

Other observations

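The genes that flank ST8SIA6 on chromosome 10 were chosen after their values were seen. VIM, the intermediate filament vimentin, read 11.47 and 11.59 in MV4-11R, against 12.26 and 12.25 in MV4-11, and fell (difference -0.73, SE 0.11, adjusted p = 0.0110 by limma). On the other side STAM, an adaptor of endosomal sorting, read 9.13 and 8.95 in MV4-11R, against 9.58 and 9.78 in MV4-11, and fell (-0.64, SE 0.13, adjusted p = 0.0258). With 1 array left out STAM had a difference of -0.74 to -0.54 and did not pass without MV4-11R replicate 2 (adjusted p = 0.0763) or MV4-11 replicate 2 (0.105), and VIM had one of -0.79 to -0.67 (adjusted p at most 0.0443). Such fits take the spread from the other line. The next genes outward, TRDMT1 (0.11) and TMEM236 (-0.03), did not pass and read near 5 in both lines, under the background guide. RSU1, the bright gene farther out, was at -0.16 (adjusted p = 0.574).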
